A study of Mus musculus with 8 samples.

Results

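The genes described here are 6 rows of a mouse expression table of 754 genes, all 6 of which were found and all 6 of which passed the filter on low values, as did 454 genes of the table in total. They were taken by name: Tnfrsf1a, which encodes the type 1 receptor for tumour necrosis factor (TNF), Fadd, Traf1 and Traf2, which encode adaptor proteins of TNF family receptors, and Birc2 and Birc3, which encode the cellular inhibitor of apoptosis proteins (cIAPs). The RNA came from CD8 T cells purified by negative selection from C57BL/6 spleens. They were cultured for 48 hours in 200 µl of tumour-conditioned medium with antibodies to CD3 and CD28 at 2 µg/ml. The conditioned medium had been collected at 48 hours. For 4 samples the medium was conditioned by wild-type B16F10 cells, a C57BL/6 mouse melanoma line, and for the other 4 by B16F10 cells in which SSBP4 was knocked out. The knockout was thus in the tumour cells that made the medium and not in the cells measured, and the groups are called WT medium and KO medium below. Every sample of both groups had the same stimulating antibodies and conditioned medium, so no sample shows unstimulated T cells or fresh medium. The labels give neither the number of knockout clones nor the number of mice or of medium batches behind the 4 samples of a group, so the p-values measure sample-to-sample spread only, which may be technical. The labels also carry a number of unstated meaning that is 2, 3, 4 and 6 in WT medium and 8, 9, 10 and 12 in KO medium, and whatever it marks cannot be told apart from the medium.

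When TNF binds its type 1 receptor, the adaptor TRADD and the kinase RIPK1 assemble on the receptor's death domain, and TRAF2 brings in the cIAPs. These ubiquitin ligases build chains that activate NF-kappaB and mitogen-activated protein kinases, which favours survival. When that step is weak, FADD joins in the cytosol and activates caspase-8, which starts apoptosis. TRAF2, TRAF3 and the cIAPs also keep the kinase NIK, encoded by Map3k14, at a low level and so hold back the non-canonical branch of NF-kappaB. In activated T cells the same adaptors serve co-stimulatory receptors such as 4-1BB, with TRAF1, which lacks the RING domain of TRAF2, bound to TRAF2 and the cIAPs.

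RNA was counted on the nCounter Myeloid Innate Immunity panel, which hybridises a barcoded probe to each transcript and counts the barcodes without amplification. Values are the authors' normalized signal, and counts recovered from them summed to 188174 to 346676 per sample. The background threshold, the mean plus 2 SD of the negative controls, was 22.08. Values of different genes come from different probes and are not set against each other. Of 17 T cell markers listed, 6 were in the table, and Cd8a, Cd8b1, Cd3d, Cd3e and Cd3g were not analysed here, so the cell label could be checked only through shared signalling and co-stimulatory genes. The summed level of these 6 was 715 to 1052 in WT medium and 1543 to 2308 in KO medium. Most of both sums came from Fyn (means 409 and 753) and Ptprc (means 250 and 660). All 6 were called higher in KO medium, beside 46.9% of all genes tested. Of 12 mesenchymal markers listed, 7 were in the table, with a summed level of 6530 to 7868 in WT medium and 562 to 877 in KO medium. Of the 6 that were tested 5 fell and 1, Pdgfrb, rose, beside 24.7% of all genes tested called lower and 46.9% higher. Cd34, Pdgfra, Prrx1 and Col3a1 were below background in all 4 KO medium samples. They passed the filter on the mean of all 8 samples only through WT medium, so their fall is tied to that filter. Most of the mesenchymal sum came from Cd34 in WT medium (mean 4817) and from Fn1 in KO medium (mean 628). The log2 change of Fn1 from WT to KO medium was only -0.57. Which cells held the transcripts described below, and the part of these marker shifts in each result, were not tested. In such bulk RNA, fewer cells of a type and less RNA per cell cannot be told apart.

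Of the 6 genes, Traf1, Traf2 and Birc3 fell in KO medium, Tnfrsf1a and Fadd rose, and Birc2 did not pass the test (limma, Benjamini-Hochberg adjusted p under 0.05 over all genes tested). Over all genes tested, 24.7% were called lower, 46.9% higher and 71.6% in either direction, so that a called gene was the usual case on this panel. The values of the media did not overlap for 5 of the 6 genes, the same 5 that were called, beside 68.1% of all genes tested, called or not. The median log2 change of the 6 was -0.69, beside 0.41 over all genes tested, where a change is KO minus WT medium on log2(value + 1).

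**Figure D1:**
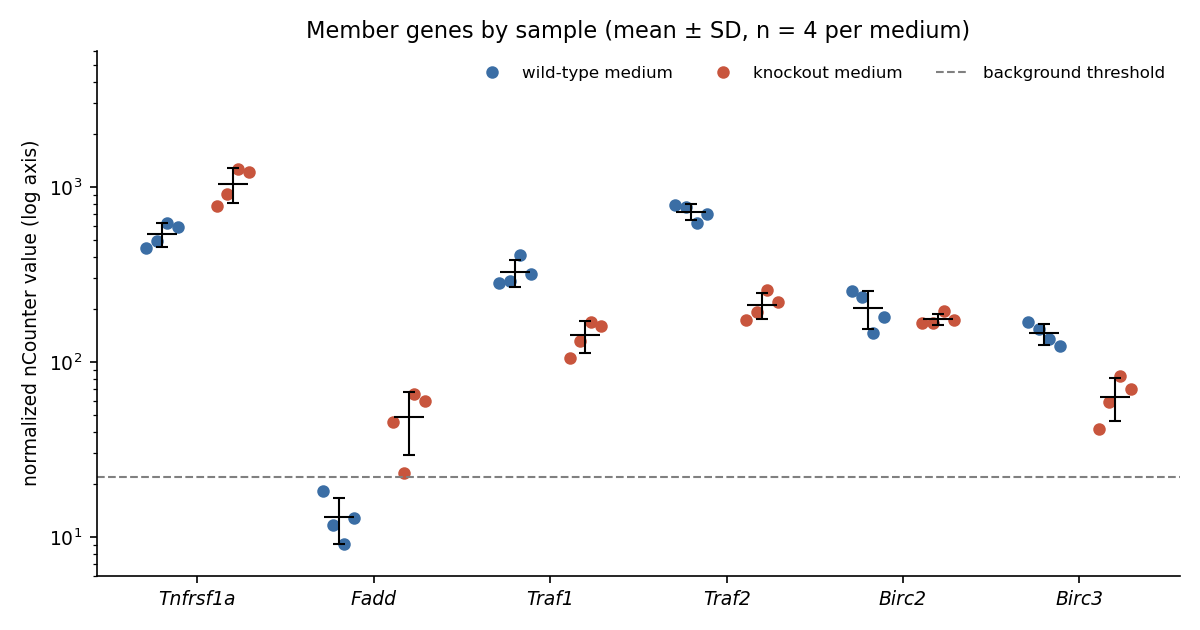
Normalized nCounter value of each of the 6 genes on a log axis, with 1 point per sample, samples 1 to 4 from left to right, and the mean ± SD (n = 4) of each medium in black. The KO medium points lie above those of WT medium for Tnfrsf1a and Fadd and below them for Traf1, Traf2 and Birc3, while those of Birc2 overlap; all 4 WT medium points of Fadd lie below the dashed background threshold of 22.08.

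The receptor gene Tnfrsf1a (chr6:125349723-125362483, GRCm38.p6) stood at 446, 491, 624 and 587 in WT medium samples 1 to 4 and at 778, 911, 1264 and 1214 in KO medium samples 1 to 4. The lowest KO medium value lay above the highest WT medium value, and in both media samples 3 and 4 were higher than samples 1 and 2. The mean rose from 537 ± 82.6 to 1042 ± 235 (SD, n = 4), a log2 change of 0.94 (SE 0.18, limma adjusted p = 0.00132). With samples scaled to the 6 T cell markers the change was -0.33 and did not pass (limma adjusted p = 0.171). Over all 21 alternatives the adjusted p ran from 2.21e-05 to 0.171.

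Fadd (chr7:144578323-144582441), the adaptor that carries the death signal to caspase-8, was at 18.2, 11.8, 9.1 and 12.8 in WT medium samples 1 to 4, all below background. In KO medium samples 1 to 4 it was at 45.2, 23.2, 65.8 and 59.7, and only through these values did it pass the filter on the mean of all 8 samples. Sample 2 was the lowest of these and lay close to the threshold, with 20 recovered counts, and samples 3 and 4 were the highest. Recovered counts were 10 to 23 in WT medium and 20 to 63 in KO medium, so counting error weighs more on this gene than on the other 5. With WT medium values raised to the threshold, Fadd was at least 2.0-fold higher in KO medium. Such a fold, here and below, is an estimate with low values raised in this way and not a confidence limit. The fitted log2 change was 1.76 (SE 0.35, 95% confidence interval 0.96 to 2.57, limma adjusted p = 0.00174). Scaled to the T cell markers the fitted change was 0.54 and the call was lost (limma adjusted p = 0.243, in a range of 0.000227 to 0.243 over 20 alternatives).

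Both TRAF genes fell. Traf2 (chr2:25517982-25546940), the adaptor that recruits the cIAPs, was at 784, 768, 619 and 703 in WT medium samples 1 to 4 and at 174, 193, 258 and 219 in KO medium samples 1 to 4. The groups lay far apart, with the highest KO medium value under the lowest WT medium value. The mean went from 719 ± 75.2 to 211 ± 36.2, and the log2 change of -1.77 (SE 0.14, limma adjusted p = 4.71e-06) corresponds to a level 3.42-fold lower. Traf1 (chr2:34941750-34961812), the RING-less partner of TRAF2 and itself a known target of NF-kappaB, was at 283, 290.5, 408 and 320 in WT medium and at 105, 132, 170 and 161 in KO medium. Its values did not overlap either, and sample 3 was the highest in both media. The mean went from 325 ± 57.7 to 142 ± 29.5, a log2 change of -1.20 (SE 0.18, limma adjusted p = 0.000346). Both calls held in all 21 alternatives, with changes of -3.04 to -1.47 for Traf2 and -2.46 to -1.06 for Traf1.

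The cIAP genes lie next to each other on chromosome 9 and did not behave alike. In GRCm38.p6, Birc2 (cIAP1) spans chr9:7818226-7837131 and Birc3 (cIAP2) chr9:7847468-7873205, with 10336 bases between them. Birc3 was at 169, 155, 136 and 123 in WT medium samples 1 to 4 and at 41.2, 59.1, 82.7 and 70.1 in KO medium samples 1 to 4. No KO medium value reached the WT medium range, and the mean went from 146 ± 20.1 to 63.3 ± 17.6, a log2 change of -1.22 (SE 0.22, limma adjusted p = 0.000986). The Birc3 call held in all 21 alternatives, with changes of -2.48 to -0.76. Birc2 was at 253, 236, 146 and 180 in WT medium and at 167, 168, 194 and 174 in KO medium. The KO medium values fell inside the WT medium range, which samples 1 and 2 held high and samples 3 and 4 low. Its means of 204 ± 49.6 and 176 ± 12.5 gave a log2 change of -0.18 with a 95% confidence interval of -0.58 to 0.22 (limma adjusted p = 0.38).

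The Birc2 result depended on the scaling and on the sample numbers. It passed as lower with median scaling (log2 change -0.57, limma adjusted p = 0.0284), with quantile normalization (-0.49, adjusted p = 0.0396) and when scaled to the T cell markers (-1.45, adjusted p = 0.000948). It also passed in samples 1 and 2 alone (-0.54, limma adjusted p = 0.00295), whereas in samples 3 and 4 alone the change was 0.18 (adjusted p = 0.346). The adjusted p over all alternatives ran from 0.000948 to 0.762. Whether the change of Birc2 differed between these sample numbers was not tested.

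The contrast between the cIAP genes was measured within each sample, where the scaling of samples cancels apart from the pseudocount. The log2 ratio of Birc3 to Birc2 was -0.58, -0.61, -0.11 and -0.54 in WT medium samples 1 to 4 and -2.0, -1.49, -1.22 and -1.30 in KO medium samples 1 to 4. The ratio was lower in every KO medium sample than in any WT medium sample, with a mean difference of -1.04 (exact two-sided permutation test over 70 assignments, p = 0.0286, adjusted 0.0429 over 3 pairs of genes). That p is the smallest that 4 samples against 4 can give. With same-numbered samples taken as pairs, an exact sign-flip test over 16 flips gave p = 0.125, the smallest that 4 pairs allow, so the call is lost in that design.

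The other gene pairs compared in this way were the TRAF partners, and the adaptor with the receptor. The log2 ratio of Traf1 to Traf2 was -1.15 ± 0.40 in WT medium and -0.58 ± 0.12 in KO medium (n = 4). The media overlapped, since WT medium sample 3 was at -0.60 and KO medium sample 1 at -0.72, and the difference of 0.57 did not pass (exact permutation p = 0.0857, adjusted 0.0857). The log2 ratio of Traf2 to Tnfrsf1a was 0.81, 0.64, -0.01 and 0.26 in WT medium samples 1 to 4 and -2.15, -2.23, -2.29 and -2.47 in KO medium samples 1 to 4. The adaptor transcript was thus 6.55-fold lower relative to the receptor transcript, with no overlap (exact permutation p = 0.0286, adjusted 0.0429, and 0.125 by the exact sign-flip test of 4 pairs). Members were chosen with the directions of Traf2, Birc3, Traf1 and Tnfrsf1a already known, so these ratios add sizes rather than independent evidence.

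The start regions of the genes show whether those that fell together share a plain sequence feature. Shown are windows of 250 bases before to 50 after the RefSeq start (GRCm38.p6), 5′ to 3′ on the strand of the gene, for the TRAF pair and the neighbouring cIAP pair, with each CG dinucleotide in capitals.
Traf1 (chr2:34961723-34962022, minus strand): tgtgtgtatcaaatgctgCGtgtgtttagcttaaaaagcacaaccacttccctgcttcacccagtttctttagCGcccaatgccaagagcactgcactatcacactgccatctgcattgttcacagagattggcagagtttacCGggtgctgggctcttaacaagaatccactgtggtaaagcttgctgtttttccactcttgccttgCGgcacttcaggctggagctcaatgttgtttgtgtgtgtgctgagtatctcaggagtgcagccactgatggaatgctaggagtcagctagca
Traf2 (chr2:25546891-25547190, minus strand): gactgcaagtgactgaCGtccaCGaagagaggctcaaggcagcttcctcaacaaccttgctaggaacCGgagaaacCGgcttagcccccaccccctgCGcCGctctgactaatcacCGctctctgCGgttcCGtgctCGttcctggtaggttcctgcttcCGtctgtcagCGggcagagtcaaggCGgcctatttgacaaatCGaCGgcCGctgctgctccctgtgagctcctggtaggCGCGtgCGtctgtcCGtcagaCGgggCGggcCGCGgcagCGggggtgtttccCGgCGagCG
Birc3 (chr9:7873121-7873420, minus strand): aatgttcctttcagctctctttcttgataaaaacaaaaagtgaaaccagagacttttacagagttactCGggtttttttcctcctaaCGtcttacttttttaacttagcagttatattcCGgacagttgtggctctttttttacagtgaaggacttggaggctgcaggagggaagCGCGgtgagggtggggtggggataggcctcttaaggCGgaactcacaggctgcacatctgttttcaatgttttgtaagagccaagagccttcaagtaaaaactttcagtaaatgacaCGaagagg
Birc2 (chr9:7837008-7837307, minus strand, the more upstream of its windows): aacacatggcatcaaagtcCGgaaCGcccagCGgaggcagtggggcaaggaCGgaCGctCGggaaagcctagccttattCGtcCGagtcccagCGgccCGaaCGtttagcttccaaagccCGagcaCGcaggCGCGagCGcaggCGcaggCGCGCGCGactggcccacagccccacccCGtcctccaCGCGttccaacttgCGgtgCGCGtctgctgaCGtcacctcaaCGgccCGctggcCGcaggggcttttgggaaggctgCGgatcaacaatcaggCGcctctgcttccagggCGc

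The genes that fell did not share a CG content. The windows of Traf1, Birc3 and Traf2 held 4, 7 and 28 CG dinucleotides, where the median over 32851 windows was 7. Birc2, which did not pass, held 34 in the window shown and 21 in its other window, and Fadd and Tnfrsf1a, which rose, held 22 and 11. The adjacent cIAP genes thus differ, with a GC share of 67% for the Birc2 window shown and 43% for Birc3. None of the 7 windows of the 6 genes matched the kappaB consensus on either strand, a motif found in 8.46% of all windows of the same length. Those letters are absent from these windows, and sites elsewhere were not searched.

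Scaling moved all genes together, and it decided the sign of the smaller changes. The median log2 change of the genes tested was 0.41 with the authors' scaling, 0.26 with positive controls alone, 0.12 with quantile normalization, 0.02 with median scaling and -0.85 with scaling to the T cell markers. Relative to that median, Traf1 was lower by the same amount under all 5 scalings, with a difference of -1.61. The difference from the median was -2.19 to -2.10 for Traf2, -1.79 to -1.63 for Birc3 and -0.61 to -0.59 for Birc2. It was 0.52 to 0.61 for Tnfrsf1a and 1.19 to 1.40 for Fadd. That these differences hardly moved follows from the construction of a factor per sample, except for quantile normalization. The split of all calls into higher and lower was 213 and 112 with the authors' scaling, 173 and 115 with positive controls, 167 and 136 with quantile normalization, 152 and 148 with median scaling and 61 and 258 with the T cell markers.

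**Figure D2:**
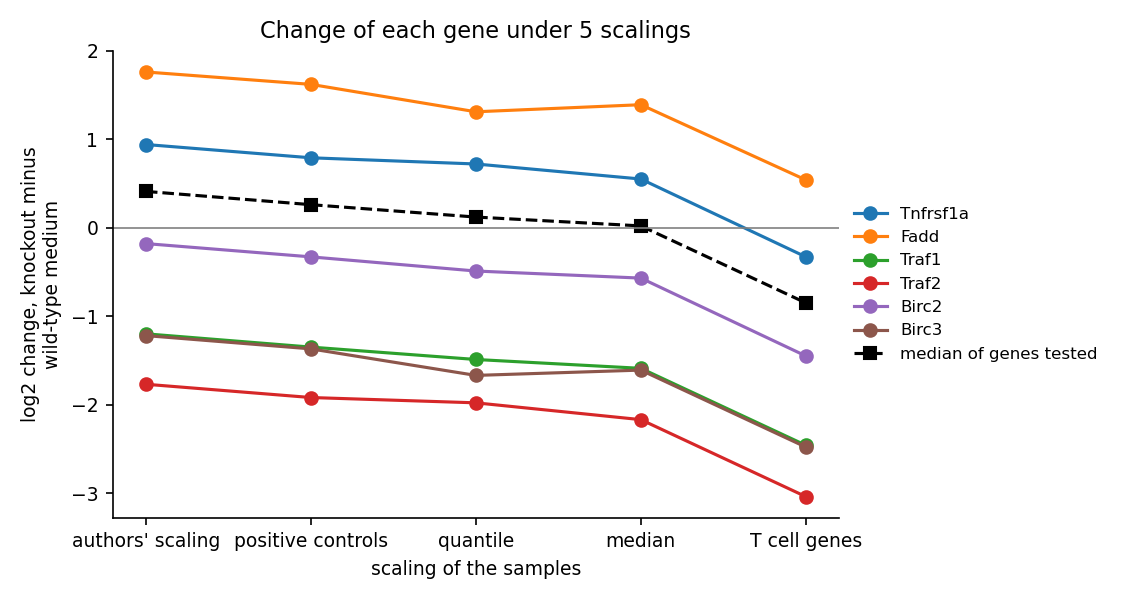
Log2 change (KO minus WT medium) of each of the 6 genes under 5 scalings of the samples, with the median of the genes tested as black squares. Traf1, Traf2 and Birc3 lie below 0 in all 5, Fadd lies above 0 in all 5, and Tnfrsf1a goes from 0.94 to -0.33 while staying above the median.

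The samples carry numbers 1 to 4 in each medium, and the size of several differences followed these numbers. Between same-numbered samples Birc3 differed by -2.01, -1.37, -0.71 and -0.80 on the log2 scale. Traf2 differed by -2.16, -1.98, -1.26 and -1.68. Both were thus lower in all 4 comparisons, and by more in samples 1 and 2. Fadd differed by 1.27, 0.92, 2.72 and 2.14, but its WT medium values were all below background, so these sizes and their order carry little information. Traf1 differed by -1.42, -1.13, -1.26 and -0.98 and Tnfrsf1a by 0.80, 0.89, 1.02 and 1.05, which are narrower ranges. Birc2 alone changed sign, at -0.60, -0.49, 0.40 and -0.04. No test of these differences between numbers was made, because the meaning of the numbers is not given in the labels. The 5 genes called kept their direction and their call in samples 1 and 2 alone and in samples 3 and 4 alone.

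**Figure D3:**
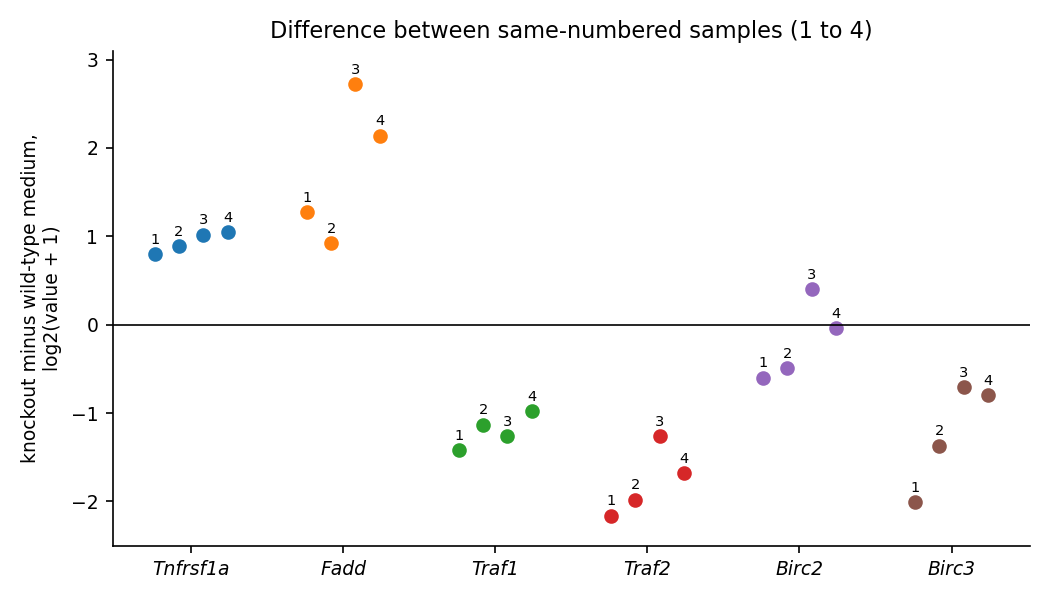
Difference in log2(value + 1) between KO and WT medium samples of the same number, 1 point per number, with the number above each point. Tnfrsf1a and Fadd lie above 0 and Traf1, Traf2 and Birc3 below 0 for all 4 numbers, and Birc2 runs from -0.60 to 0.40.

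Among the ligands of the family, 8 of 17 listed genes were in the table and 5 were tested. Of these 4 rose, 0 fell and 1 did not pass, with a median log2 change of 1.01, beside 46.9% of all genes called higher. Of those that rose, Tnf and Tnfsf10 passed the filter on the mean only through KO medium. The median is the fitted change of Tnfsf10, so the count and the median rest in part on that filter. Scaled to the T cell markers none of the 4 passed as higher, with log2 changes of 0.40 for Ltb, 0.03 for Tnf and -0.21 for Tnfsf10, and Tnfsf9 passed as lower at -0.72. With quantile normalization and with positive controls alone, Ltb kept its call and Tnf, Tnfsf10 and Tnfsf9 lost theirs. With median scaling Tnfsf10 and Tnfsf9 lost theirs. Ltb, a subunit of membrane lymphotoxin, was at 130, 128, 136 and 142 in WT medium samples 1 to 4 and at 321, 408, 523 and 476 in KO medium samples 1 to 4, a log2 change of 1.66 (SE 0.15, limma adjusted p = 1.38e-05). Tnf itself had values of 14.2, 9.95, 20.9 and 23.4 against 19.9, 30.1, 74.2 and 57.8, which overlap and are near background. It was at least 1.76-fold higher (limma adjusted p = 0.0292), with a 95% confidence interval of 0.25 to 2.26 for its fitted log2 change. That call was lost without WT medium sample 1 or 2 or KO medium sample 3 or 4. The limma adjusted p was 0.00728 to 0.0806 with each sample left out. The calls of Tnfsf10, which encodes TRAIL, and of the 4-1BB ligand gene Tnfsf9 (log2 change 0.53) rested on single samples too. Tnfsf10 was at least 1.65-fold higher, with a 95% confidence interval of 0.21 to 1.82 for its fitted log2 change. The Tnfsf10 call was lost without any one of the same 4 samples (adjusted p up to 0.0752) and the Tnfsf9 call without WT medium sample 3 (adjusted p = 0.0534).

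Of 20 other receptors listed, 10 were in the table and 6 were tested, of which 4 rose and 2 fell (median log2 change 0.61), beside 46.9% of all genes called higher and 24.7% lower. The second TNF receptor gene, Tnfrsf1b, went the other way from Tnfrsf1a: it was at 39.6, 36.2, 32.8 and 45.7 in WT medium samples 1 to 4 and at 14.6, 20.8, 29.7 and 15.2 in KO medium samples 1 to 4. The mean of 20.1 in KO medium lay below background, and Tnfrsf1b was at least 1.58-fold lower (limma adjusted p = 0.00809). The 95% confidence interval of its fitted log2 change was -1.53 to -0.38. Its call was lost in samples 3 and 4 alone (limma adjusted p = 0.0888). Scaled to the T cell markers the contrast in sign was gone, with log2 changes of -2.17 for Tnfrsf1b and -0.33, not called, for Tnfrsf1a. Tnfrsf12a, the receptor of the ligand TWEAK, which signals through TRAF2, fell from 1198 ± 115 to 573 ± 54.8 (log2 change -1.06, SE 0.10, limma adjusted p = 1.75e-05). Tnfrsf9, which encodes the TRAF1- and TRAF2-binding co-stimulatory receptor 4-1BB, was at 4.75, 9.95, 26.4 and 13.8 in WT medium and at 101, 109, 134 and 121 in KO medium, at least 4.84-fold higher (limma adjusted p = 0.000146). Cd27, another co-stimulatory receptor gene, rose from 53.5 ± 10.5 to 135 ± 34.5 (limma adjusted p = 0.000979). Scaled to the T cell markers, the call of Tnfrsf9 held. Cd27 is itself 1 of the 6 markers used for that scaling. Its change of 0.04 and lost call there follow largely from the construction and are no separate result.

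Of 30 other adaptors, kinases and regulators listed, 6 were in the table and all 6 were tested. Of these 2 rose, 2 fell and 2 did not pass (median log2 change -0.12), beside 46.9% of all genes called higher and 24.7% lower. Tradd, Ripk1, Traf3 and Casp8 were not analysed here, which leaves the receptor complex covered in part. Birc5, which shares the BIR domain with the cIAPs and encodes survivin, a protein of mitosis, fell from 325 ± 35.3 to 73.2 ± 11 (log2 change -2.14, SE 0.14, limma adjusted p = 1.47e-06). Ikbke, a kinase of the IKK family, rose from 37.3 ± 4.43 to 94.8 ± 23.7 (log2 change 1.30, SE 0.20, limma adjusted p = 0.000386), but its change was 0.05 and did not pass when scaled to the T cell markers. Traf6, the adaptor of Toll-like and interleukin-1 receptors, rose from 190 ± 2.76 to 239 ± 25.7, a log2 change of 0.32 (SE 0.10, limma adjusted p = 0.0185). That is under the median of all genes, and the change was -0.07 with median scaling and -0.95, called lower, with the T cell markers. Map3k14, the kinase that TRAF2 and the cIAPs keep low as protein, fell from 52.4 ± 5.22 to 36.8 ± 7.76 (log2 change -0.52, limma adjusted p = 0.034). With the replicate numbers as a block, the limma adjusted p was 0.0538. The Map3k14 call did not hold when WT medium sample 1, 2 or 4 or KO medium sample 2 or 4 was dropped (limma adjusted p of 0.0568 to 0.0891 in those 5 fits). Tnfaip3, the deubiquitinase A20, was at 146 ± 24.9 and 115 ± 41.3 and Ripk2 at 57.5 ± 9.51 and 65.7 ± 20.1 (limma adjusted p = 0.213 and 0.599).

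Of 10 NF-kappaB subunits and inhibitors listed, 4 were in the table and tested. Of these 2 rose and 2 fell (median log2 change 0.10), beside 46.9% of all genes called higher and 24.7% lower. Nfkbia, the inhibitor that NF-kappaB itself induces, was at 204, 214, 102 and 104 in WT medium samples 1 to 4 and at 42.5, 62.5, 55.2 and 59.7 in KO medium samples 1 to 4. It fell by 1.42 on the log2 scale (SE 0.28, limma adjusted p = 0.00178), with no overlap. Nfkbiz, an atypical inhibitor, fell by 0.37 (SE 0.11, limma adjusted p = 0.0165), a call lost without WT medium sample 1 or 2 (adjusted p = 0.0539 and 0.0507). Nfkb1, the p105 and p50 subunit gene, rose from 234 ± 19.5 to 348 ± 53.5 (limma adjusted p = 0.00317). Nfkbie, another inhibitor, rose from 25.6 ± 7.79 to 46.7 ± 13.1 (limma adjusted p = 0.0257), a call lost without WT medium sample 1 or 4 or KO medium sample 3 or 4 (adjusted p up to 0.0681). Scaled to the T cell markers, Nfkb1 passed as lower (log2 change -0.70, limma adjusted p = 0.013) and Nfkbie was at -0.38. With median scaling and with positive controls alone neither passed (limma adjusted p = 0.212 and 0.107 for Nfkb1, 0.14 and 0.113 for Nfkbie). With quantile normalization Nfkb1 passed and Nfkbie did not (limma adjusted p = 0.00746 and 0.286).

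Of 19 listed NF-kappaB target genes, 14 were in the table and 10 were tested. Of these 6 fell, 2 rose and 2 did not pass, with a median log2 change of -1.84 beside 0.41 over all genes and 24.7% of all genes called lower. The list shares Nfkbia and Tnfaip3 with those above, and Tnf with the ligands. Its 3 largest changes were in genes at background in KO medium. Of those that fell, Ptgs2, Vcam1, Cxcl1 and Ccl2 passed the filter on the mean only through WT medium. Of those that rose, Tnf passed it only through KO medium. The counts and the median thus rest in part on that filter. Ptgs2, the inducible cyclooxygenase, went from 1580 ± 477 to 14.9 ± 2.49, at least 66.2-fold lower (limma adjusted p = 1.64e-08). Vcam1, an adhesion molecule, went from 132 ± 2.97 to 1.93 ± 1.54, at least 5.78-fold lower (limma adjusted p = 5.34e-07). The chemokine genes Cxcl1 and Ccl2 were at least 5.83-fold and 3.56-fold lower (limma adjusted p = 2.26e-05 and 0.000364). Ptgs2, Vcam1, Cxcl1 and Ccl2 can be expressed by stromal cells as well as by immune cells, and they fell in the same samples in which the summed mesenchymal markers went from 6530 to 7868 down to 562 to 877. The part of that shift in these values was not tested.

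**Figure D4:**
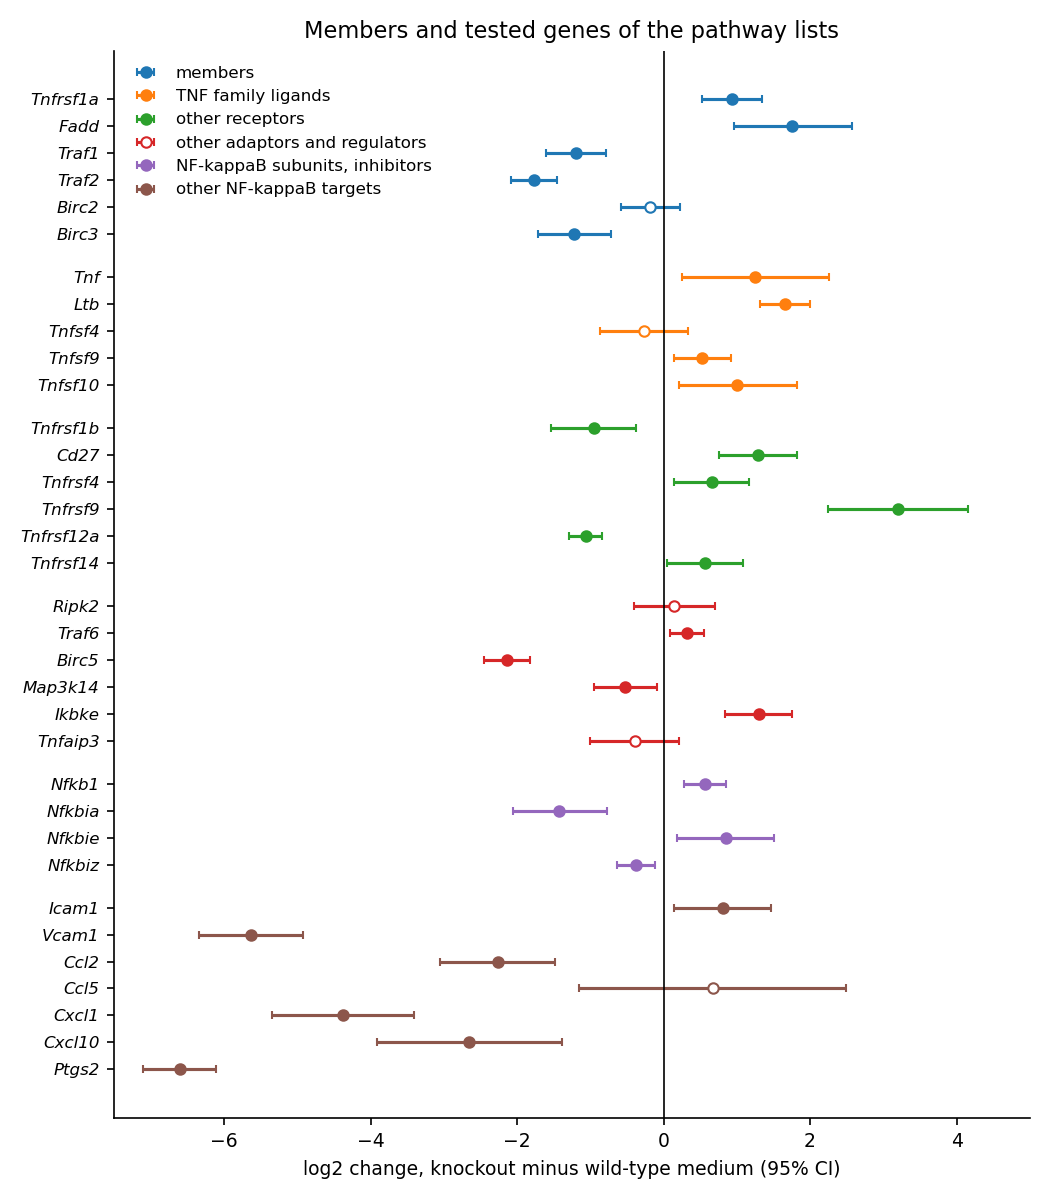
Log2 change (KO minus WT medium) with its 95% confidence interval from limma for the 6 genes and for every tested gene of the pathway lists, each gene once, coloured by list. Filled points passed at an adjusted p under 0.05 and open points did not. Lists other than the ligands hold filled points on both sides of 0, and changes of genes at background in 1 medium are fitted values rather than bounds.

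The genes of the panel whose profile lay closest to each of the 6 were found by the mean absolute difference over the 8 samples, in log2 units, after each gene was centred on its own mean. For Traf1 these were Tnfrsf12a at 0.138, the BCL2 family gene Bid at 0.143 and the cathepsin gene Ctsl at 0.144, where the median over all genes was 0.883. Birc3 was the 7th nearest gene to Traf1, at 0.206, and Traf2 the 51st, at 0.353. For Traf2 the nearest were Alcam, an adhesion molecule gene, at 0.154, Pde4a at 0.166 and 2810417H13Rik at 0.176. For Birc3 they included the AP-1 gene Jun at 0.157 and Acly at 0.158, with Traf1 at 0.206 and its neighbour on the chromosome, Birc2, at 0.521. Birc2 lay closest to Hdac5 at 0.084, Gnai3 at 0.109 and Nfkbiz at 0.134. Tnfrsf1a lay closest to the protease gene Furin at 0.082, Stat3 at 0.083 and Hif1a at 0.094, and Fadd, the lowest of the 6 in counts, to Gsn at 0.241, Txndc16 at 0.300 and Sp4 at 0.315. These distances rest mostly on the difference between the media and are a description only.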

How the data were processed

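The authors deposited 1 table of normalized nCounter signal for 754 genes and 14 control probes in 8 samples. The software they used is not given in the sources used here. Per the deposited values, the signal of each gene is a whole count times 1 factor per sample (99.87% to 100% of values above 1, within 0.1 of a step), with values below 1 listed as 1 and the controls unscaled. Dividing by the factor gave the recovered counts. Genes with a mean over all 8 samples of at least 22.08 were tested (454, with 300 set aside). A gene with 1 group mean below that value passed only through the other medium. Among the 6 genes, the pathway genes named and the markers named, that was so for Fadd, Tnf, Tnfsf10, Tnfrsf9 and Fcgr4 through KO medium. It was so for Tnfrsf1b, Ptgs2, Vcam1, Cxcl1, Ccl2, Cd34, Pdgfra, Prrx1 and Col3a1 through WT medium. For all of these the direction of the call is tied to the filter. The fit of log2(value + 1) used limma 3.58.1 in R 4.3.3, with medium as the only term and the prior variance trended on the mean, and tests were two-sided with Benjamini-Hochberg adjustment. Fold changes on this scale understate the change of low genes. Where a group mean lay below background, its values under the threshold were raised to it, and the fold is a bound with respect to background only. It is an estimate from mean log2 values and not a confidence limit. Log2 ratios of 3 gene pairs were compared by exact permutation tests. The fit was tested on simulated data.

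The text names the 6 genes, up to 4 genes of each pathway list with the smallest p, and the 3 nearest genes by profile, of which 1 is not reported here. Other genes were named after their values were seen, to complete a count or a marker list. The 6 genes and all lists were chosen with earlier results of these data known. Marker lists of B cells, dendritic cells, neutrophils, NK cells, macrophages and monocytes, and melanocytes held 1, 5, 7, 1, 10 and 0 genes in the table, of which 0, 0, 0, 1, 4 and 0 were tested. Of these, Fcgr4, which passed the filter only through KO medium, rose, Cd68 fell and Itgam, C1qa and Klrk1 did not pass.

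The same sample numbers occur in both media. Deviations from the group means correlated across genes at 0.454, 0.296, 0.465 and 0.197 between same-numbered samples, all above 0.1, which, with the numbers in the titles, meets the rule used for taking numbers to mark pairs. The tests reported are unpaired, and the paired fit is given where it changed a call. Samples 1 and 2 of opposite media also deviated together (0.396 and 0.267), as did samples 3 and 4 (0.424 and 0.255). The rule thus cannot tell pairs from a split of samples 1 and 2 against samples 3 and 4. Alternatives were a block for the number, other pseudocounts, filters and scalings, no trend, each sample left out, samples 1 and 2 or 3 and 4 alone, and their averages.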

Additional observations from a re-analysis of the deposited data

Results flagged for a closer look

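Values of the 6 genes, of the pathway genes named and of the 3 log2 ratios were checked for 1 sample far from the other 3 of its medium. Of 58 groups of 4 samples, 4 had such a sample. The rule is set to mark about 1 group in 20 by chance, a rate that was not measured on these data. The log2 ratio of Birc3 to Birc2 was -0.11 in WT medium sample 3, against -0.61 to -0.54 in the other samples of that medium. Without that sample the difference between the media was -0.93. Tnfrsf12a was 1370 in WT medium sample 3, against 1135 to 1147 in the others. Ptgs2 was 18.6 in KO medium sample 1, and Vcam1 was 4.24 in KO medium sample 3, both below background.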

How the results depend on the processing

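Traf1, Traf2 and Birc3 kept their direction and their calls in all 21 alternatives each. Scaled to the T cell markers, 61 genes were called higher and 258 lower, the log2 change was -1.45 for Birc2 (called lower), -0.33 for Tnfrsf1a and 0.54 for Fadd (neither called), and it was -0.70 for Nfkb1, -0.38 for Nfkbie, -0.21 for Tnfsf10, -0.72 for Tnfsf9 and -0.95 for Traf6, of which Nfkb1, Tnfsf9 and Traf6 passed as lower. Ltb (0.40), Ikbke (0.05) and Tnf (0.03) lost their calls there too, as did Cd27 (0.04), which is 1 of the 6 markers used for that scaling. With median scaling the log2 change was -0.57 for Birc2 and -0.07 for Traf6, and with quantile normalization -0.49 for Birc2. Nfkb1, Nfkbie, Tnfsf10, Tnfsf9 and Traf6 lost their calls with median scaling, and Nfkbie, Tnf, Tnfsf10, Tnfsf9 and Traf6 with quantile normalization. With positive controls alone, Nfkb1, Nfkbie, Tnf, Tnfsf10, Tnfsf9 and Traf6 lost theirs. Birc2 was at -0.54 in samples 1 and 2 alone and at 0.18 in samples 3 and 4 alone. The cause of these shifts was not tested. With each sample left out, the log2 change ran from -1.29 to -1.06 for Traf1, from -1.87 to -1.69 for Traf2, from -0.33 to -0.07 for Birc2, from -1.37 to -1.04 for Birc3, from 0.84 to 1.07 for Tnfrsf1a and from 1.59 to 2.07 for Fadd. The ratio differences then ran from -1.14 to -0.88 for Birc3 to Birc2, from -2.86 to -2.58 for Traf2 to Tnfrsf1a and from 0.47 to 0.76 for Traf1 to Traf2, and none could pass, since 0.0571 is the smallest p of 4 against 3. Sign flips within sample numbers, added after seeing the data, kept the differences at -1.04 and -2.71 but could not pass either. The fit with the replicate number as a block called 227 genes higher and 115 lower and changed no call of the 6 genes (Birc2 adjusted p = 0.400). Of the other pathway genes named, Map3k14 lost its call under the block (adjusted p = 0.0538). With samples 1 and 2, and 3 and 4, averaged, 144 were higher and 80 lower, the 5 calls among the 6 genes held, and Map3k14, Nfkb1, Nfkbie, Nfkbiz, Tnf, Tnfsf10, Tnfsf9 and Traf6 lost theirs. A filter at 2 times the threshold left Fadd, Tnf, Tnfsf10, Tnfrsf1b and Nfkbie untested. edgeR and DESeq2 were not run, because low values floored at 1 keep the table from being treated as counts. Depth limits Fadd, Tnf and other genes near background.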
